A study of Mus musculus with 6 samples.

Results

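Signalling lymphocyte activation molecule (SLAM) receptors and their SAP adaptors were examined in lymphocytes of the mouse mammary gland. The members were 8 genes taken by symbol: the receptors Slamf1, Slamf6, Slamf7, Ly9, Cd48 and Cd84 and the adaptors Sh2d1a and Sh2d1b1. All 8 were found among the 55450 genes of the table, each under a single gene ID, and all 8 were among the 13171 genes that passed the filter on low counts. The study concerned lymphocytes that reside in the epithelium of the gland and their bearing on how epithelial and basal cells mature. Bulk RNA was sequenced from sorted cells of pregnant mice at E18.5. There were 3 libraries of double negative (DN) NK1.1+ lymphocytes and 3 libraries of CD8 beta+ T cells. The labels call the DN cells lymphocytes in one field and T cells in the sample titles, and the genes of both T cells and NK cells that they hold are given beside the results. Which markers are absent from the DN cells is not in the labels, nor are the strain, genotype or age of the mice. They do not say whether the libraries of a group came from separate animals, so that p-values measure the spread between these libraries, which may be technical.

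SLAM receptors are surface proteins of blood cells. Most of them bind the same receptor on a neighbouring cell, while CD48 is the ligand of 2B4 and, in mice, of CD2. The tails of most SLAM receptors carry a tyrosine motif to which small adaptors with an SH2 domain bind. SAP, the product of Sh2d1a, acts in T cells and natural killer (NK) cells and recruits the kinase Fyn. EAT-2, the product of Sh2d1b1, acts mainly in NK and myeloid cells and is linked to phospholipase C gamma. When no adaptor is bound, phosphatases can dock to the same motif and turn the receptor into an inhibitory one. In humans, loss of SAP causes X-linked lymphoproliferative disease. In mice, SAP is needed for invariant NKT cells and for the help that T cells give to germinal centres.

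The mouse genome holds a close copy of Sh2d1b1, Sh2d1b2, which bears on how the counts of this adaptor can be read. The last 296 bases of both coding sequences, from position 101 to 396 without the stop codon, are shown to let the copies be compared. They were read from the GENCODE M21 transcripts, and capitals mark the bases at which the copies differ.

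Sh2d1b1: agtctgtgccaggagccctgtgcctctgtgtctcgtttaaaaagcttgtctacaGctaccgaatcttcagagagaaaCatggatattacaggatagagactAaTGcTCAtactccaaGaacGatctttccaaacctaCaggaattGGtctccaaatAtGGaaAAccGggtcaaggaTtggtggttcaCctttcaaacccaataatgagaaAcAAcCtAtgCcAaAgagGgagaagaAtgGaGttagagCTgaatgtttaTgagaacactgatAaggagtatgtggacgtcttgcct
Sh2d1b2: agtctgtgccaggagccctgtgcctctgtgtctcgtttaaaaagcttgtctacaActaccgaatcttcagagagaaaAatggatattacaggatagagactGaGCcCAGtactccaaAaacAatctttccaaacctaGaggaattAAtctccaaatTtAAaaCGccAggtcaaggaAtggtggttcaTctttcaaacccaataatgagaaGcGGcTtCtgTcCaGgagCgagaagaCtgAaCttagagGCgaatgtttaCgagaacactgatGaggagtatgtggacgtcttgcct

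Both coding sequences have 396 bases without the stop codon, and they differ at 37 positions, which leaves 90.7% identical. Counted from 1 at the first base of the start codon, the first difference is G155A and the last is A373G, with the base of Sh2d1b1 first. The coding sequence of Sh2d1a has 378 bases and is 57.8% identical to that of Sh2d1b1 over 372 aligned bases. Of 2495 windows of 50 bases in the Sh2d1b1 transcript, 334 (13.4%) also occur in Sh2d1b2. In the deposited values, Sh2d1b1 and Sh2d1b2 had fractional counts in all 3 DN NK1.1+ libraries. The fractions of the pair added up to whole numbers, within a tolerance of 1e-06, with sums of 510, 631 and 729 counts. Sh2d1b2 received 3.02%, 3.22% and 1.68% of these sums in DN NK1.1+ libraries and 0 counts in the 3 CD8 beta+ libraries.

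Cd8b1 and Klrb1c followed the labels. Cd8b1, for CD8 beta, had 1.21 to 4.30 CPM (the library's counts scaled by TMM to a common total) in DN NK1.1+ libraries and 890.2 to 1006 CPM in CD8 beta+ libraries. Klrb1c, for NK1.1, had 616 to 658 CPM in DN NK1.1+ libraries and 30.8 to 41.7 CPM in CD8 beta+ libraries. CD8 beta and NK1.1 name the groups in the labels, so that differences in Cd8b1 and Klrb1c are no independent result. Cd8a, for CD8 alpha, was lower in DN NK1.1+ libraries but not near 0. It had 151 to 174 CPM there, against 851 to 1007 CPM in CD8 beta+ libraries (log2 fold change −2.49). Library totals were 11440721 to 12820875 counts in the DN NK1.1+ group and 7961360 to 14367299 counts in the CD8 beta+ group, so that 1 count was worth 0.0721 to 0.130 CPM.

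Of the 8 members, 1 was higher and 4 were lower in DN NK1.1+ than in CD8 beta+ libraries at an adjusted p under 0.05. The higher one was the adaptor Sh2d1b1, and the lower ones were Slamf1, Slamf6, Ly9 and Sh2d1a. Over all tested genes 13.8% passed this threshold, 7.84% as higher and 5.99% as lower. The median log2 fold change was −0.51 over the members and −0.0033 over all tested genes. The groups did not overlap in 6 members, against 30.6% of all tested genes. The members were chosen with earlier results of these data known, so that these counts are no independent result. In these bulk samples, fewer cells of a type and less RNA per cell cannot be told apart.

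**Figure D1:**
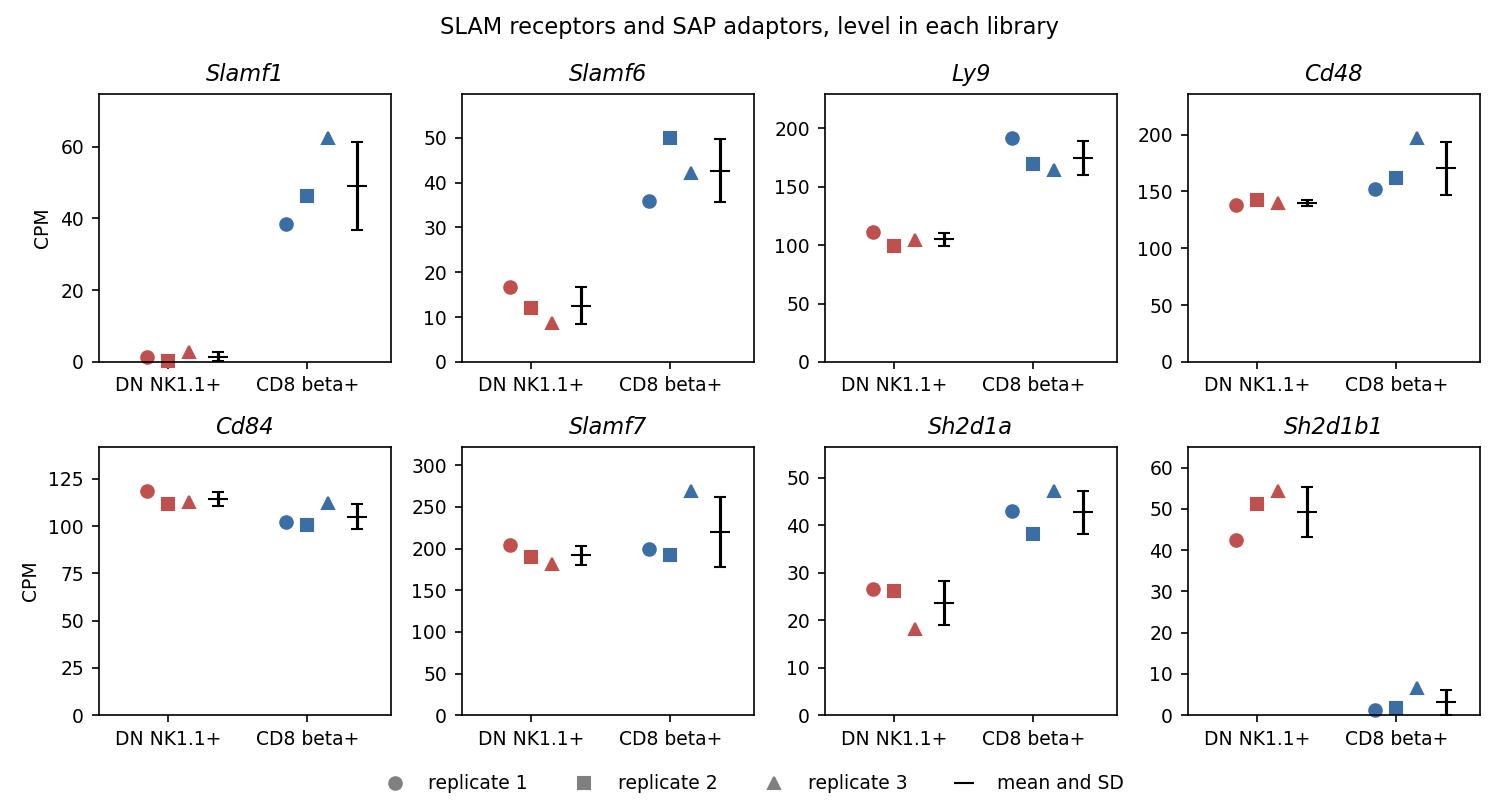
CPM of the 8 members in each library (points, 1 symbol per replicate number) with the mean and SD of 3 libraries per group (bars), DN NK1.1+ left and CD8 beta+ right in each panel. The groups stand apart in every panel except Cd84 and Slamf7, and the widest gaps are those of Slamf1 and Sh2d1b1.

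The receptor with the widest difference was Slamf1, for CD150, a receptor that binds itself on other cells and acts as a costimulator of T cells. It had 1.38, 0.335 and 2.80 CPM in DN NK1.1+ libraries, against 38.5, 46.1 and 62.4 CPM in CD8 beta+ libraries. These levels rest on 16, 4 and 37 counts in DN NK1.1+ libraries and on 297, 640 and 607 counts in CD8 beta+ libraries. The groups were far apart, and the DN NK1.1+ libraries differed 8.37-fold among themselves. The log2 fold change was −4.99 (SE 0.550, adjusted p = 0.00128, edgeR quasi-likelihood test with Benjamini-Hochberg adjustment, used for all p-values of genes here). Without DN NK1.1+ replicate 3, which had the highest level of its group, the log2 fold change was −5.83. Of all tested genes, 0.402% had a larger change in either direction.

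Slamf6, for the receptor Ly108, which also binds itself and acts with SAP in the selection of NKT cells, was lower as well. It had 16.8, 12.1 and 8.62 CPM in DN NK1.1+ libraries, against 35.9, 49.9 and 42.2 CPM in CD8 beta+ libraries. Every DN NK1.1+ library lay below every CD8 beta+ library. The log2 fold change was −1.78 (SE 0.228, adjusted p = 6.43e-05).

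Ly9, for the self-binding receptor CD229 of T and B cells, was lower by a smaller step and with little spread. It had 111, 99.5 and 104 CPM in DN NK1.1+ libraries, against 192, 169 and 164 CPM in CD8 beta+ libraries. The groups did not overlap, and the log2 fold change was −0.74 (SE 0.100, adjusted p = 1.03e-04).

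The other 3 receptors did not pass the test. Cd48, for a ligand that is tied to the membrane by a lipid anchor and has no tail of its own, had 138, 143 and 139 CPM in DN NK1.1+ libraries, against 153, 162 and 197 CPM in CD8 beta+ libraries. Each DN NK1.1+ value was below each CD8 beta+ value, and the DN NK1.1+ libraries differed by a coefficient of variation of 1.70%. The log2 fold change was −0.28 with a 95% interval of −0.51 to −0.06 and an adjusted p of 0.0998. Slamf7, for CRACC, a self-binding receptor that works through EAT-2 in NK cells, had 204, 190.5 and 182 CPM in DN NK1.1+ libraries, against 199, 192 and 269 CPM in CD8 beta+ libraries. Here the groups overlapped, with a single high value in CD8 beta+ replicate 3. Its log2 fold change was −0.19 with a 95% interval of −0.46 to 0.07 (adjusted p = 0.366). Cd84, for another self-binding receptor, had 118, 112 and 113 CPM in DN NK1.1+ libraries, against 102, 100.4 and 112 CPM in CD8 beta+ libraries. Its log2 fold change of 0.12 had a 95% interval of −0.09 to 0.33 (adjusted p = 0.509) and so allows a change of either sign.

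**Figure D2:**
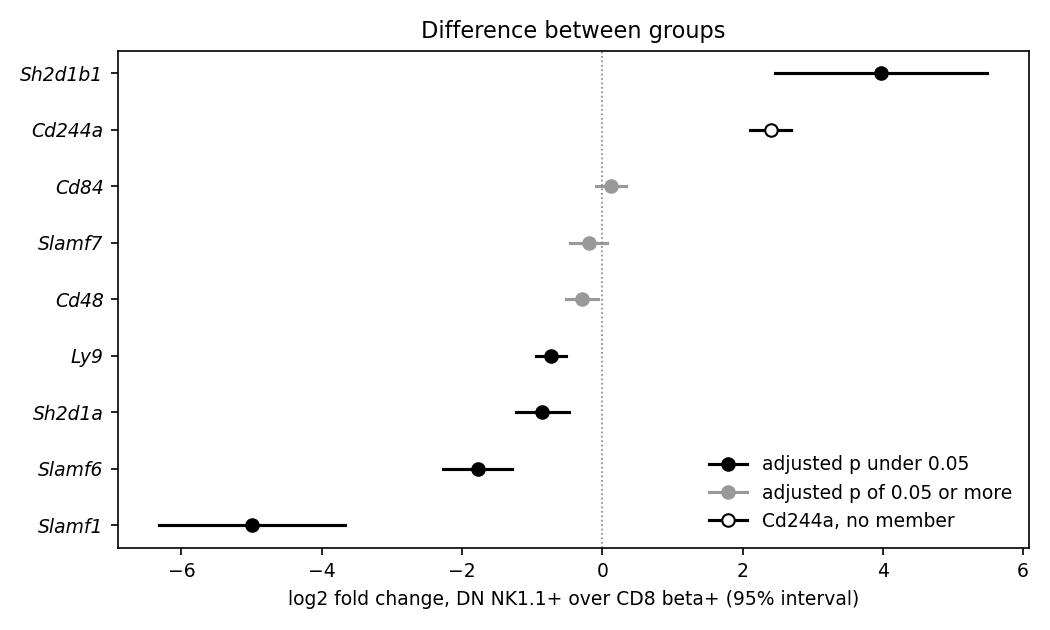
Log2 fold change of DN NK1.1+ over CD8 beta+ libraries (points) with its 95% interval (lines) for the 8 members and for Cd244a, 3 libraries per group. Black lines mark an adjusted p under 0.05, grey ones a higher p and the open point Cd244a, which is no member, and the interval of Sh2d1b1, from 2.46 to 5.49, lies opposite to that of Slamf1, from −6.31 to −3.67.

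The 2 adaptors differed in opposite directions. Sh2d1b1, for EAT-2, had 42.6, 51.1 and 54.2 CPM in DN NK1.1+ libraries, against 1.17, 1.66 and 6.58 CPM in CD8 beta+ libraries. The DN NK1.1+ libraries were close together, while CD8 beta+ replicate 3, with 64 counts, was 5.63-fold above CD8 beta+ replicate 1, with 9 counts. The log2 fold change was 3.98 (SE 0.604, adjusted p = 0.0103). Without CD8 beta+ replicate 3 it was 5.06, and in all 6 fits with a library left out the adjusted p stayed at or below 0.0448. With the counts of Sh2d1b1 and Sh2d1b2 added together it was 4.01 (adjusted p = 0.0101).

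Sh2d1a, for SAP, had 26.5, 26.1 and 18.2 CPM in DN NK1.1+ libraries, against 42.9, 38.1 and 47.2 CPM in CD8 beta+ libraries. All 3 DN NK1.1+ values were lower, with the lowest in replicate 3. The log2 fold change was −0.86 (SE 0.177, adjusted p = 0.00370). In fold terms SAP was 1.81-fold lower, against 31.8-fold for Slamf1 and 3.42-fold for Slamf6.

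Sh2d1b2, for the EAT-2 copy ERT, had 15, 20 and 12 counts in DN NK1.1+ libraries and 0 counts in each CD8 beta+ library. Against 3 counts over the CD8 beta+ group it was at least 13.3-fold higher, a bound that covers counting error only. It was called higher (adjusted p = 0.0130), and the call ended without DN NK1.1+ replicate 1 or 2 or CD8 beta+ replicate 1 or 2 (adjusted p = 0.0574 to 0.0802). Since counts of the pair were divided between the copies, the values of Sh2d1b2 are uncertain.

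Levels of different genes were compared as CPM per kilobase of annotated exon. In DN NK1.1+ libraries the order was Cd48 at 118 ± 2.01, Slamf7 at 41.9 ± 2.42, Ly9 at 31.7 ± 1.74, Sh2d1b1 at 19.4 ± 2.37, Cd84 at 18.2 ± 0.574, Sh2d1a at 4.29 ± 0.847, Slamf6 at 1.15 ± 0.378 and Slamf1 at 0.244 ± 0.201 CPM per kb (SD, n = 3). Only Sh2d1b1 and Cd84 overlapped among neighbours in that order. In CD8 beta+ libraries the order was Cd48 at 143 ± 19.7, Ly9 at 52.9 ± 4.41, Slamf7 at 48.02 ± 9.26, Cd84 at 16.7 ± 1.04, Slamf1 at 7.96 ± 1.98, Sh2d1a at 7.77 ± 0.819, Slamf6 at 3.94 ± 0.645 and Sh2d1b1 at 1.23 ± 1.18 CPM per kb (SD, n = 3). There, Ly9 overlapped with Slamf7 and Slamf1 with Sh2d1a. Cd48 led in both groups, and Sh2d1b1, the lowest member of the CD8 beta+ group, stood in the fourth place of the DN NK1.1+ group. With the length of the longest transcript in place of all annotated exons, Cd84 at 33.2 CPM per kb stood above Sh2d1b1 at 19.4 CPM per kb in DN NK1.1+ libraries. With that length Sh2d1a, at 15.6 CPM per kb, stood above Slamf1, at 11.1 CPM per kb, in CD8 beta+ libraries.

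A receptor outside the member list, Cd244a, differed in the other direction from Slamf1, Slamf6 and Ly9. It encodes 2B4, the receptor of CD48, which binds both SAP and EAT-2. Cd244a had 229.9, 257 and 219 CPM in DN NK1.1+ libraries, against 36.5, 43.3 and 53.9 CPM in CD8 beta+ libraries. The groups were far apart, with a log2 fold change of 2.40 (SE 0.134, adjusted p = 1.04e-08). Cd2, for the other receptor of mouse CD48, had 140.3 ± 2.75 CPM in DN NK1.1+ libraries and 158 ± 17.5 CPM in CD8 beta+ libraries (SD, n = 3 each) and was not called (log2 fold change −0.17, adjusted p = 0.335). Thus the ligand Cd48 was not called, while of its 2 receptors Cd244a was higher and Cd2 was not called.

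The make-up of the receptors was described as each gene's share of the summed CPM per kb of the 6 receptor members and Cd244a. Cd48 held the largest share in both groups, with 45.4% ± 1.07 in DN NK1.1+ libraries and 50.7% ± 1.76 in CD8 beta+ libraries (SD, n = 3 each, as for the other shares). Cd244a held 18.6% ± 1.23 in DN NK1.1+ libraries and 3.22% ± 0.338 in CD8 beta+ libraries. Slamf1 held 0.0953% ± 0.0801 in DN NK1.1+ libraries and 2.80% ± 0.409 in CD8 beta+ libraries. Ly9 held 12.2% ± 0.725 in DN NK1.1+ libraries and 19.0% ± 3.19 in CD8 beta+ libraries, and Slamf7 held 16.2% ± 0.721 in DN NK1.1+ libraries and 16.9% ± 1.43 in CD8 beta+ libraries. In DN NK1.1+ libraries Cd244a was thus second to Cd48, and in CD8 beta+ libraries it stood below Ly9, Slamf7 and Cd84. With the longest transcript as gene length, the mean share of Cd48 was 38.5% in DN NK1.1+ libraries and 43.4% in CD8 beta+ libraries. That of Cd244a was then 20.4% in DN NK1.1+ libraries and 3.57% in CD8 beta+ libraries. A share can move because another gene moved, so these values describe the mix and not single genes.

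**Figure D3:**
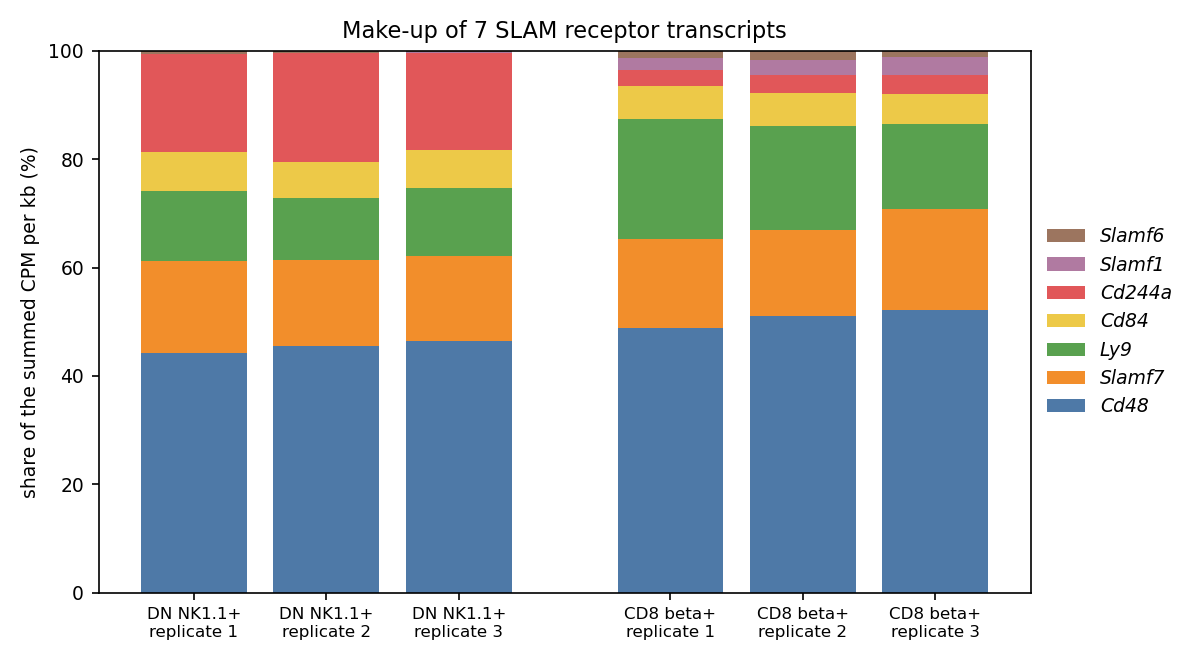
Share (percent) of each of 7 receptors in their summed CPM per kb, 1 bar per library, with the 3 DN NK1.1+ libraries left of the 3 CD8 beta+ libraries. Cd48 takes the largest part of every bar, and Cd244a is wider in each DN NK1.1+ bar than in each CD8 beta+ bar.

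The adaptors changed places between the groups. Of the summed CPM per kb of Sh2d1a, Sh2d1b1 and Sh2d1b2, Sh2d1b1 held 75.9%, 78.8% and 85.3% in DN NK1.1+ libraries, against 5.56%, 8.60% and 23.2% in CD8 beta+ libraries. Sh2d1a held 21.8%, 18.6% and 13.3% in DN NK1.1+ libraries, against 94.4%, 91.4% and 76.8% in CD8 beta+ libraries. EAT-2 transcript led in every DN NK1.1+ library and SAP transcript in every CD8 beta+ library. The sum of the 3 adaptors was 22.1, 25.5 and 25.0 CPM per kb in DN NK1.1+ libraries, against 8.26, 7.58 and 11.2 CPM per kb in CD8 beta+ libraries. With the longest transcript as gene length, the mean share of Sh2d1b1 was 68.0% in DN NK1.1+ libraries and 6.81% in CD8 beta+ libraries.

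Related genes were other family members, a partner of Cd48, kinases, adaptors, effectors and phosphatases of the pathway, and genes of T cell states that depend on SAP. Of these 33 genes in the table, 30 were tested, and 6 were higher, 7 lower and 17 not called in DN NK1.1+ libraries, which is 43.3% called against 13.8% of all tested genes. The lists were chosen with earlier results of these data known, so that this share is no independent result. The count of higher genes was 3 without DN NK1.1+ replicate 2, CD8 beta+ replicate 1 or CD8 beta+ replicate 2. Among 11 kinases and adaptors that act with SAP, 1 was higher, 3 were lower and 7 were not called. The median log2 fold change of these 11 was 0.10. Fyn, the kinase that SAP recruits, averaged 325 ± 5.64 CPM in DN NK1.1+ libraries and 447 ± 29.0 CPM in CD8 beta+ libraries (log2 fold change −0.46, adjusted p = 0.00272). Lck, the kinase of the T cell receptor, averaged 304 ± 19.6 CPM in DN NK1.1+ libraries and 452 ± 35.9 CPM in CD8 beta+ libraries (log2 fold change −0.57, adjusted p = 7.65e-04). Prkcq, for protein kinase C theta, averaged 180.1 ± 16.7 CPM in DN NK1.1+ libraries and 287 ± 28.6 CPM in CD8 beta+ libraries (log2 fold change −0.67, adjusted p = 3.72e-04). Arhgef7, for the exchange factor beta-PIX, averaged 68.5 ± 2.29 CPM in DN NK1.1+ libraries and 50.3 ± 3.31 CPM in CD8 beta+ libraries (log2 fold change 0.44, adjusted p = 0.0175), a call that ended without DN NK1.1+ replicate 1 or 2 or CD8 beta+ replicate 1 or 2.

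The 2 phospholipases C gamma, to which EAT-2 is linked, differed in opposite directions. Plcg2, the form of B and NK cells, had 151, 170 and 163 CPM in DN NK1.1+ libraries, against 22.1, 14.6 and 16.8 CPM in CD8 beta+ libraries. Plcg1, the form of T cells, had 63.4, 62.5 and 58.1 CPM in DN NK1.1+ libraries, against 222, 209 and 225 CPM in CD8 beta+ libraries. Neither pair of groups came near to overlapping. The log2 fold change was 3.19 for Plcg2 (SE 0.145, adjusted p = 7.58e-10) and −1.83 for Plcg1 (SE 0.0970, adjusted p = 4.91e-09). Per kilobase, Plcg2 stood at 37.6 ± 2.25 CPM per kb in DN NK1.1+ libraries and 4.15 ± 0.886 in CD8 beta+ libraries, and Plcg1 at 7.81 ± 0.361 CPM per kb in DN NK1.1+ libraries and 27.8 ± 1.12 in CD8 beta+ libraries. With the longest transcript as length Plcg1 stood at 12.0 CPM per kb in DN NK1.1+ libraries and 42.8 in CD8 beta+ libraries, and Plcg2 did not move. Pik3cd, for a phosphoinositide kinase of lymphocytes, was not called (log2 fold change −0.08, adjusted p = 0.756).

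**Figure D4:**
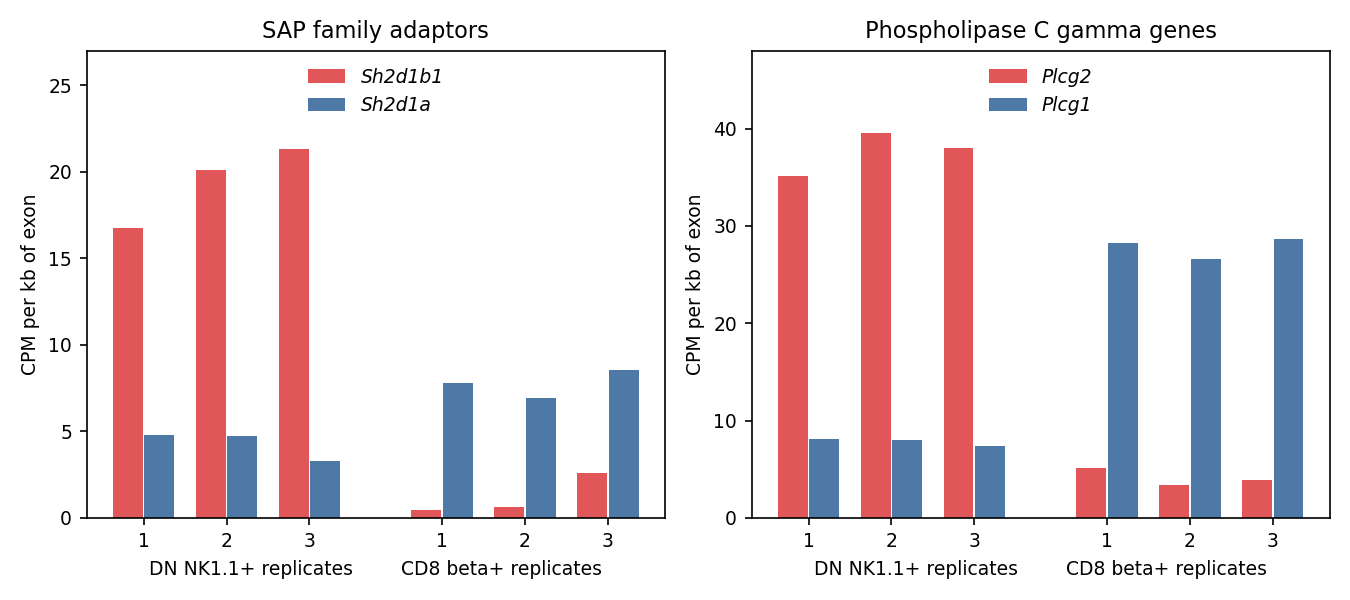
CPM per kb of exon in each library (1 bar per gene and library), for Sh2d1b1 and Sh2d1a on the left and for Plcg2 and Plcg1 on the right, with the 3 DN NK1.1+ replicates left of the 3 CD8 beta+ replicates in each panel. Sh2d1b1 and Plcg2 have the taller bar of their pair in every DN NK1.1+ library, and Sh2d1a and Plcg1 in every CD8 beta+ library.

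Of the 4 genes for phosphatases and Csk that dock to the receptor tails, 1 was lower and 3 were not called. Ptpn6, for the phosphatase SHP-1, averaged 167.5 ± 14.5 CPM in DN NK1.1+ libraries and 213 ± 20.1 CPM in CD8 beta+ libraries (log2 fold change −0.35, adjusted p = 0.0354). That call ended with scaling by library size only, without robust moderation, and without DN NK1.1+ replicate 1 or 3 or CD8 beta+ replicate 1 or 2. Ptpn11 for SHP-2 (adjusted p = 0.102), Inpp5d for SHIP-1 (adjusted p = 0.0916) and Csk (adjusted p = 0.470) were not called.

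Genes of T cells that depend on SAP in mice were counted as well. Of the 4 tested genes of innate-like T cells, Gata3, a regulator of T and innate lymphoid cells, was higher and 3 were not called. Gata3 averaged 106.5 ± 17.1 CPM in DN NK1.1+ libraries and 77.5 ± 3.91 CPM in CD8 beta+ libraries (log2 fold change 0.46, adjusted p = 0.0190), a call that ended without DN NK1.1+ replicate 2 or without any one of the CD8 beta+ replicates. Zbtb16, for PLZF, the factor that defines NKT cells, had 8.78, 1.76 and 13.5 CPM in DN NK1.1+ libraries, against 2.21, 0.072 and 1.75 CPM in CD8 beta+ libraries. The DN NK1.1+ libraries spread widely and 1 of them lay within the CD8 beta+ range (adjusted p = 0.201). The other tested genes of this list differed in the opposite direction and were not called. These were Egr2 (log2 fold change −0.97, adjusted p = 0.122) and Ifng (log2 fold change −0.47, adjusted p = 0.0710). Of the 4 tested genes of follicular helper T cells, 1 was higher, 2 were lower and 1 was not called. Bcl6, the factor that sets that fate, averaged 69.9 ± 4.31 CPM in DN NK1.1+ libraries and 42.3 ± 8.32 CPM in CD8 beta+ libraries (log2 fold change 0.72, adjusted p = 0.00276). Icos, for a costimulator, averaged 25.1 ± 6.52 CPM in DN NK1.1+ libraries and 117 ± 11.1 CPM in CD8 beta+ libraries (log2 fold change −2.22, adjusted p = 1.57e-06). Pdcd1, for the inhibitory receptor PD-1, averaged 1.06 ± 1.11 CPM in DN NK1.1+ libraries and 27.4 ± 7.93 CPM in CD8 beta+ libraries (log2 fold change −4.64, adjusted p = 0.00167, and −5.98 without DN NK1.1+ replicate 3).

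The 6 receptor members lie side by side on chromosome 1, within 364.547 kb of the mm10 build, and the counts around them were set against theirs. From left to right they are Ly9 (chr1:171588624-171607410, minus strand), Slamf7 (chr1:171632403-171653035, minus strand), Cd48 (chr1:171682009-171705258, plus strand), Slamf1 (chr1:171767127-171801184, plus strand), Cd84 (chr1:171839697-171890718, plus strand) and Slamf6 (chr1:171917515-171953170, plus strand). Sh2d1b1 (chr1:170277320-170286769, plus strand) lies on the same chromosome, 23.7 kb beyond the end of Sh2d1b2. Sh2d1a (chrX:42502453-42529330, plus strand) lies on another chromosome. Lower genes and genes that were not called are mixed along the cluster, where Slamf1 and Slamf6 flank Cd84, and Ly9 lies next to Slamf7. Of the 12 other tested genes within 200 kb of the cluster, 1 was higher, 1 was lower and 10 were not called. That is 16.7% called, against 13.8% of all tested genes. The higher one was Cd244a, whose span holds Ly9 on the opposite strand with no exon base in common. The lower one was Gm24871 (log2 fold change −1.06, adjusted p = 0.0381), whose call ended with limma-voom and without any one DN NK1.1+ replicate or CD8 beta+ replicate 1 or 2. Copa, for a coat protein of transport vesicles, had a log2 fold change of 0.06 with 356.7 CPM in DN NK1.1+ libraries and 342.4 CPM in CD8 beta+ libraries (means, n = 3 each). A window of 200 kb around the span of all members on chromosome 1 also takes in the region from Sh2d1b1 to the cluster. Of its 39 other tested genes, 7 were higher, 1 was lower and 31 were not called. That is 20.5% called, against 13.8% of all tested genes. Over all tested genes 7.84% were higher and 5.99% were lower. The higher ones were Sh2d1b2, Nos1ap, Gm10522, Fcgr3, Cfap126, Fcer1g and Cd244a. The alternative settings were not applied to the counts of this wider window.

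**Figure D5:**
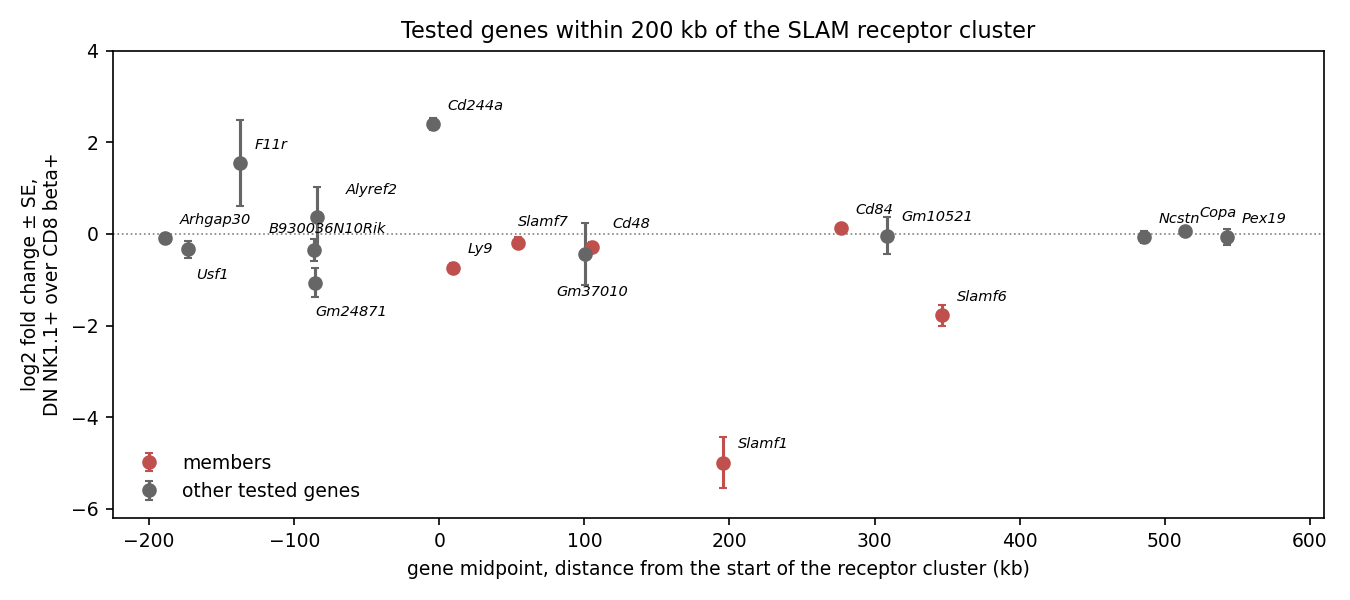
Log2 fold change of DN NK1.1+ over CD8 beta+ libraries (points, with the SE as lines) for tested genes within 200 kb of the receptor cluster, against the distance of the gene's midpoint from the start of the cluster in kb. Red points are the 6 receptor members and grey points the 12 other genes, and Cd244a at 2.40 and Slamf1 at −4.99 stand furthest from 0.

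Promoter sequence was compared for the members with the widest differences in either direction. RefSeq promoters (GRCm38.p6) were found for 6 of the 8 members, not for Ly9 and Sh2d1a. The 250 bases before the annotated start are printed for Sh2d1b1 (chr1:170277068-170277317, plus strand) and Slamf1 (chr1:171766882-171767131, plus strand), with matches to the motifs searched in capitals.

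Sh2d1b1: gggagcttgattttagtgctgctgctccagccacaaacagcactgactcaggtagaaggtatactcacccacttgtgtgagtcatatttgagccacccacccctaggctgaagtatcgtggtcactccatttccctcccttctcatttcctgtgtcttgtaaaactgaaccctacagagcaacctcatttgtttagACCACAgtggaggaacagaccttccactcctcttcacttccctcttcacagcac
Slamf1: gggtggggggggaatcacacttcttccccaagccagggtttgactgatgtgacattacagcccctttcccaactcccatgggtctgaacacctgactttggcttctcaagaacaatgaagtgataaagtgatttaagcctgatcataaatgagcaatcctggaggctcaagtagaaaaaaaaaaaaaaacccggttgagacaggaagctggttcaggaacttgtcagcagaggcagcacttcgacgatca

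The motifs, searched on both strands, were a RUNX core (TGTGGT), a T-box core (GGTGTG), a TCF/LEF core (CTTTGA) and an ETS motif (CCGGAA). They occur in 14%, 16.3%, 13.8% and 12% of 32851 promoter windows of the same length, in that order. The window of Sh2d1b1 held a RUNX core on the opposite strand, with its first base at position −54 from the start, and that of Slamf1 held none of the 4. The windows of Cd84 and Cd48 held a RUNX core as well, at −45 and −76. In Cd48 a T-box core at −73 overlapped it, and a TCF/LEF core lay at −168 on the opposite strand. The windows of Slamf6 and Slamf7 held none of the 4. A match describes these letters only, and shorter or other forms of the binding sites were not searched.

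The genes with patterns most like those of the called members were named by the smallest root mean square difference of centred log2 CPM over the 6 libraries, among 8880 genes. For Slamf1 they were Pdcd1 (0.508) and Ly6a (0.716), for Slamf6 Phf11c (0.171) and Bend4 (0.186), and for Ly9 Mrps16 (0.0353) and Rpl13a (0.0622), all in log2 units. For Sh2d1a they were Ccdc92 (0.0905) and Lilr4b (0.100), and for Sh2d1b1 Klra9 (0.255) and Sulf2 (0.278). Klra9 encodes a receptor of the Ly49 family of NK cells. The measure follows the difference between 2 groups of 3 libraries and describes likeness in these libraries only.

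Markers of T cells, NK cells and other cells were summed by list in each library. The sums of the macrophage, neutrophil, milk and platelet lists overlapped between the groups. The T cell list (Cd3d, Cd3e, Cd3g, Cd247, Trac and Cd5) summed to 1614 to 1781 CPM in DN NK1.1+ libraries and 2658 to 2843 CPM in CD8 beta+ libraries, and 5 of its 6 genes were lower. Cd3e itself had 513 to 527 CPM in DN NK1.1+ libraries and 741 to 775 CPM in CD8 beta+ libraries. Trac had 233 to 256 CPM in DN NK1.1+ libraries and 592 to 696 CPM in CD8 beta+ libraries. The widest difference of the list was that of Cd5, with 9.28 to 10.9 CPM in DN NK1.1+ libraries and 152 to 172 CPM in CD8 beta+ libraries. Cd3g, with 593 to 725 CPM in DN NK1.1+ libraries and 667 to 793 CPM in CD8 beta+ libraries, was not called. The NK list (Klrb1c, Ncr1, Klrk1, Eomes and Tyrobp) summed to 1952 to 2090 CPM in DN NK1.1+ libraries and 309 to 374 CPM in CD8 beta+ libraries, with 4 of 5 genes higher. Ncr1, which marks NK cells and related innate cells, had 251.6 to 293 CPM in DN NK1.1+ libraries and 0.29 to 0.65 CPM in CD8 beta+ libraries. In CD8 beta+ replicate 3, where Sh2d1b1 was highest, Klrb1c at 41.7 CPM, Klrk1 at 134 CPM and Tyrobp at 27.2 CPM were also the highest of that group, while Ncr1 at 0.51 CPM was not and Eomes at 171 CPM was the lowest. The macrophage list summed to 211, 101 and 160 CPM in DN NK1.1+ libraries and 79.5, 100 and 147 CPM in CD8 beta+ libraries, and 1 of its 8 genes, Csf1r, was higher. The B cell list, whose cells also express Slamf1 and Ly9, summed to 18.9, 14.9 and 6.73 CPM in DN NK1.1+ libraries and 42.2, 48.8 and 19.6 CPM in CD8 beta+ libraries, and 1 of its 5 genes, Cd79b, was lower. The mast cell list summed to 14.3 to 18.46 CPM in DN NK1.1+ libraries and 0.577 to 2.72 CPM in CD8 beta+ libraries. Most of that sum was Kit, the 1 gene of the list that was tested, which was higher (12.0 to 17.9 CPM in DN NK1.1+ libraries and 0.308 to 2.72 CPM in CD8 beta+ libraries, adjusted p = 0.00244), while Cpa3 had at most 3.70 CPM and Ms4a2 and Mcpt8 at most 0.418 CPM in any library. Dendritic cell genes summed to 7.70 to 12.6 CPM in DN NK1.1+ libraries and 1.43 to 4.21 CPM in CD8 beta+ libraries, and neutrophil genes to 1.34 to 5.598 CPM in DN NK1.1+ libraries and 0.130 to 9.25 CPM in CD8 beta+ libraries. Plasma cell genes summed to 74.4 to 92.0 CPM in DN NK1.1+ libraries and 45.7 to 53.4 CPM in CD8 beta+ libraries, and 1 of the 3, Xbp1, which many cell types express, was higher (adjusted p = 0.0191). Genes of milk and luminal epithelium summed to 174, 443 and 987 CPM in DN NK1.1+ libraries and 479, 310 and 417 CPM in CD8 beta+ libraries, most of it from the milk gene Csn2, which was not called. Of the 5 tested genes of that list 1 was higher, Epcam, an adhesion molecule of epithelial cells, with 30.7 to 32.7 CPM in DN NK1.1+ libraries and 4.01 to 7.40 CPM in CD8 beta+ libraries (log2 fold change 2.40, adjusted p = 4.06e-06). Platelet genes summed to at most 1.21 CPM in DN NK1.1+ libraries and 1.13 CPM in CD8 beta+ libraries, with Gp9 at 0 in all 6. The part of these cells in the differences of the members was not tested.

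Some member reads could also be shared with other genes. Sh2d1a shares 1465 exon bases (26.6% of its exons) with Tenm1 on the opposite strand, and Slamf7 shares 423 (9.24%) with Gm37787 on the opposite strand. Both partners had 0 counts in all libraries. Whether the counting used strand is not given in the sources used here, so reads of such pairs cannot be told apart. No exon window of 50 bases of Ly9, Cd48 or Slamf6 occurs in another gene's transcripts. Even so, 4 of the 6 deposited values of Cd48, 3 of those of Ly9 and 2 of those of Slamf6 were not whole. Of the windows of Slamf1 and Cd84, 2.38% and 1.71% occur in other transcripts. Among libraries, CD8 beta+ replicate 3 was the highest of its group for 6 of the 8 members, against 37.9% of all tested genes, and DN NK1.1+ replicate 1 was the highest of its group for 5 of the 8, against 32% of all tested genes.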

How the data were processed

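RNA was sequenced in bulk from cells sorted from mammary glands, with RNA taken by RNeasy Micro columns and libraries made with a Tecan Solo mouse kit, per the labels' protocols. The deposited table holds expected counts per gene (8.43% of values are not whole), judged from the values. The submitters' processing notes name mm10 and Cell Ranger 7.1.0, without saying for which libraries. For the bulk libraries the aligner, counter and strand setting were not given in the sources used here. All 55450 gene IDs match GENCODE M21.

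Expected counts were rounded and fitted for all genes with edgeR 4.0.16 in R 4.3.3 (TMM scaling, filterByExpr with a minimum count of 10 and a total of 15, robust quasi-likelihood test, group as the only term, Benjamini-Hochberg adjustment over 13171 genes, threshold 0.05), after the fit was tested on simulated data. SE and 95% intervals come from that fit. CPM per kb divides CPM by the union of annotated exons. Alternatives were DESeq2 1.42.0, limma-voom (limma 3.58.1), other scalings and filters, each library left out, and the replicate number as a block. Replicates differed beyond sampling noise (chi-square per degree of freedom 9.07 to 23.5).

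The 8 members and every listed related gene could be named, with the 2 genes most like each called member. The members and lists were chosen with earlier results of these data known. The single-cell libraries were not analysed here.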

Additional observations from a re-analysis of the deposited data

How the results depend on the processing

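The calls of all 8 members held in all 15 alternative settings, and for Sh2d1b1 also with its copy added. In the fits with a library left out, genes called numbered 1180 to 1976 in all, 681 to 1093 higher and 499 to 883 lower, and without CD8 beta+ replicate 1 they numbered 1180, 681 and 499. Related genes ranged from 3 to 7 higher and from 6 to 9 lower. The lower gene beside the receptor cluster ranged from 0 to 1 in these fits and was 0 with limma-voom. Scalings moved the median log2 fold change of all genes to at most 0.0446.

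With the longest transcript as length, levels moved in DN NK1.1+ libraries to 48.3 for Slamf7, 42.2 for Ly9, 33.2 for Cd84, 8.60 for Sh2d1a and 2.18 CPM per kb for Slamf6, and in CD8 beta+ libraries to 70.3 for Ly9, 30.6 for Cd84, 15.6 for Sh2d1a, 11.1 for Slamf1 and 7.45 CPM per kb for Slamf6. The share of Sh2d1b1 in DN NK1.1+ libraries then was 68.0%.

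The replicate number as a replicate block left all 8 member calls as they were, at −5.11 for Slamf1 and 4.17 for Sh2d1b1. Among related genes, Zbtb16 was then called higher (2.78, adjusted p = 4.42e-04 by edgeR). Cxcr5 and Ifng were called as well, with log2 fold changes in the opposite direction, −3.10 and −0.47 in the main fit. The labels share only a number between groups, and the deviations of same-numbered libraries from their group means correlated at −0.05, 0.19 and 0.26. Of DN NK1.1+ replicates 1, 2 and 3, the closest CD8 beta+ libraries were 2, 2 and 3.

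The uncalled Slamf9 changed sign with library size only (0.0315), limma-voom (0.87) and the replicate block (0.33), and ranged from −0.57 to 0.65 with a library left out. In those fits the uncalled Nck1 ranged from −0.15 to 0.0021 and Pik3cd from −0.20 to 0.0132. Counted once per gene and setting over the members and related genes, 18 calls were lost and 20 gained, none of them of a member. The lost ones were those of Sh2d1b2, Arhgef7, Ptpn6 and Gata3, beside the lost calls of Gm24871. The cause was not tested. Depth limits the low end, since Slamf1 rests on 4 to 37 counts in DN NK1.1+ libraries and Sh2d1b1 on 9 to 64 counts in CD8 beta+ libraries.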
